A study of Homo sapiens with 12 samples.

Results

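The genes described here are 32 targets of the transcription factor NRF2 and enzymes of glutathione metabolism, with NFE2L2, which encodes NRF2 itself, and its inhibitor KEAP1 among them. They were found by gene name among 38611 genes, and all 32 passed the filter on low counts. The data are RNA sequencing libraries of DU145 and PC3, 2 human lines first grown from prostate cancer metastases. Each line was measured as a docetaxel-resistant subline and as its parental control, with 3 libraries in each of the 4 groups. Docetaxel is a taxane that stabilises microtubules. The drug was doubled step by step from 10 nm/ml in DU145 and from 0.5 nm/ml in PC3, and culture went on to a half-maximal inhibitory concentration of 1800 nm/ml in DU145 and 15 nm/ml in PC3. That unit is printed as the submitters give it. Both lines grew in the same serum-supplemented medium. A resistant group is 1 selected subline, so effects of the drug and other features of that subline cannot be told apart, and whether docetaxel was present at harvest is not given in the sources used here. The labels do not name separate cultures, and the tests may therefore rest on technical spread between libraries.

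NRF2 is a leucine zipper factor that KEAP1 holds for degradation through a CUL3 ubiquitin ligase. Oxidants and electrophiles modify KEAP1, after which NRF2 accumulates, pairs with small MAF proteins and binds antioxidant response elements near its targets. Its control lies largely in protein stability, so the NFE2L2 transcript is no direct measure of its activity. The targets make glutathione, a tripeptide thiol, keep thioredoxin and peroxiredoxins reduced, supply NADPH, reduce quinones and carbonyls, and store iron.

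The core of the antioxidant response element, TGACNNNGC, was searched on both strands of RefSeq promoters (GRCh38.p14), from 250 bases before to 50 bases after each start site. On the opposite strand the core reads GCNNNGTCA. Promoter entries matched 25 of the 32 genes. HMOX1, GSS, SLC7A11, GSR, PRDX1, AKR1B10 and FTH1 were not among them. The core was found for 10 of the 25 genes, in 11 of 35 promoter windows (31.4%), against 13.3% of 35116 windows of the same length over all genes. In a further list of 70 genes of the same system, 55 of which had entries, it was found in 11 of 80 windows (13.8%), near the share over all genes. The 10 genes were KEAP1, GCLM, GPX2, GSTP1, MGST1, TXNRD1, PGD, ME1, CBR1 and EPHX1. A match describes these letters and is not a measured binding site. The 7 stretches below are written 5′ to 3′ on the strand of the gene and end before the start site, with capitals marking 1 core each. They were chosen because the genes differ in what they did: GCLM, TXNRD1 and KEAP1 were lower in resistant DU145 and higher in resistant PC3, ME1 and GSTP1 were lower in resistant DU145 and not called in PC3, PGD was higher in both resistant sublines, and CBR1 was higher in resistant DU145 and lower in resistant PC3.
GCLM, chr1:93909431-93909494, minus strand, core beginning at -34: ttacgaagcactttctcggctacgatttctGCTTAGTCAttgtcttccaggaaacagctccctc
TXNRD1, chr12:104215650-104215718, plus strand, core beginning at -99: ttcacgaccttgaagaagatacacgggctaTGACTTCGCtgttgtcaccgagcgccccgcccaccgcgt
KEAP1, chr19:10502787-10502855, minus strand, core beginning at -54: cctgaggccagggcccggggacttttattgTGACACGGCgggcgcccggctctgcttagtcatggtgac
ME1, chr6:83431150-83431218, minus strand, core beginning at -137: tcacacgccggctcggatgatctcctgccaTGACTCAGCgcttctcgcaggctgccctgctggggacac
GSTP1, chr11:67583716-67583784, plus strand, core beginning at -66: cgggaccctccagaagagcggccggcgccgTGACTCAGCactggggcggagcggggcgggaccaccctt
PGD, chr1:10398833-10398901, plus strand, core beginning at -201: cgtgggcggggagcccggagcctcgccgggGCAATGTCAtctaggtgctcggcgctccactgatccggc
CBR1, chr21:36069835-36069903, plus strand, core beginning at -159: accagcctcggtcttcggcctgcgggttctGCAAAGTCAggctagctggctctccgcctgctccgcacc
KEAP1 holds a second core on the other strand, beginning at -31, whose letters lie in lower case in the stretch above. Further cores of TXNRD1, beginning at -8 and, by another start site, at -102, are not printed. Nor is a second core of ME1, beginning at 12, past the start site.

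Library totals lay between 62513103 and 72530254 counts. CTNNA1, which PC3 lacks, averaged 0.244 and 0.328 FPKM (fragments per kilobase and 1e+06 mapped) in resistant and parental PC3, against 43.8 and 60.4 FPKM in resistant and parental DU145. The mitochondrial share of counts was 7.04 to 7.14% in resistant DU145, against 3.98 to 4.30% in parental DU145, and 3.46 to 3.55% in resistant PC3, against 5.68 to 6.04% in parental PC3. The summed FPKM of 6 epithelial markers moved the same way, at 614 to 621 in resistant DU145, against 475 to 490 in parental DU145, and at 238 to 253 in resistant PC3, against 355 to 361 in parental PC3. CDH1, EPCAM, KRT8 and KRT18 were called in the direction of the sum in both lines. KRT19 fell in resistant DU145 as well as in resistant PC3, and KRT7 rose in resistant PC3, at 42.5 FPKM against 9.24 FPKM in parental PC3 (4.72-fold), and was not called in DU145. The 6 fibroblast and smooth muscle markers summed to 0.623 to 1.42 FPKM in resistant DU145, against 2.75 to 4.91 FPKM in parental DU145, and to 1.304 to 2.14 FPKM in resistant PC3, against 12.9 to 13.9 FPKM in parental PC3. The 4 endothelial markers summed to 7.57 to 10.9 FPKM in resistant PC3, against 27.2 to 35.7 FPKM in parental PC3, and to at most 0.133 FPKM in DU145. The lower sum in PC3 was that of KDR, at 6.23 FPKM in resistant PC3 against 27.9 FPKM in parental PC3, whereas PECAM1 was called higher, at 3.42 FPKM in resistant PC3 against 2.35 FPKM in parental PC3 (0.58 ± 0.20, adjusted p = 0.0274). The part of these values in the results below was not tested. The 5 leukocyte markers used summed to at most 0.638 FPKM in any library. Library 1 of resistant PC3 stood apart from libraries 2 and 3, differing from them by a per-gene chi-square of 37.1 and 37.2, where libraries 2 and 3 differed from each other by 17.9. Without it 23 of the 32 genes passed in PC3, against 22 with it.

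In resistant DU145, 26 of the 32 genes passed the test against parental DU145, 8 higher and 18 lower. Over all 24128 genes tested, 39.6% passed, 18.9% higher and 20.7% lower. Among 12202 genes with a mean of at least 5 CPM (counts scaled to 1e+06 per library), 63.7% passed, where 26 of 29 of the genes described did. A change of at least 2-fold was called for 5 of the 32, against 13.0% of all genes, and the libraries of the groups did not overlap in CPM for 28, against 51.2% of all genes. The median log2 change was -0.20 over the 32 genes and 0.00 over all genes. Tests are edgeR's quasi-likelihood test on counts with Benjamini-Hochberg adjustment over all genes, a gene was called at an adjusted p under 0.05, and changes are log2 values ± standard error. In bulk RNA, fewer cells of a kind and less RNA per cell cannot be told apart.

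In resistant PC3, 22 of the 32 genes passed against parental PC3, 16 higher and 6 lower. Over all genes, 44.0% passed, 22.4% higher and 21.6% lower, and among genes of at least 5 CPM 68.8% passed, where 22 of 29 of the genes described did. That share is near the background of well expressed genes. A change of at least 2-fold was called for 6 of the 32, against 17.1% of all genes, and the libraries did not overlap for 22, against 54.4% of all genes. The median log2 change was 0.22 over the 32 genes and 0.00 over all genes.

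Of the 32 genes, 9 were called lower in resistant DU145 and higher in resistant PC3, or 28.1%. This combination held for 6.59% of all genes and for 12.2% of genes of at least 5 CPM. The 9 were KEAP1, NQO1, HMOX1, GCLM, MGST1, TXN, TXNRD1, SRXN1 and PRDX1. GSS and CBR1 did the reverse (6.25%), against 5.52% of all genes and 9.28% of genes of at least 5 CPM. GSR, PGD, AKR1C1, UGDH and OSGIN1 were higher in both resistant sublines (15.6%), against 6.54% of all genes. Among genes of at least 5 CPM the share higher in both was nearer to that of the 32 genes, though still below it. SLC7A11, TKT, EPHX1 and FTH1 were lower in both (12.5%), against 6.90% of all genes and 12.4% of genes of at least 5 CPM. That share is near the background of well expressed genes. The 2 comparisons share no libraries.

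**Figure D1:**
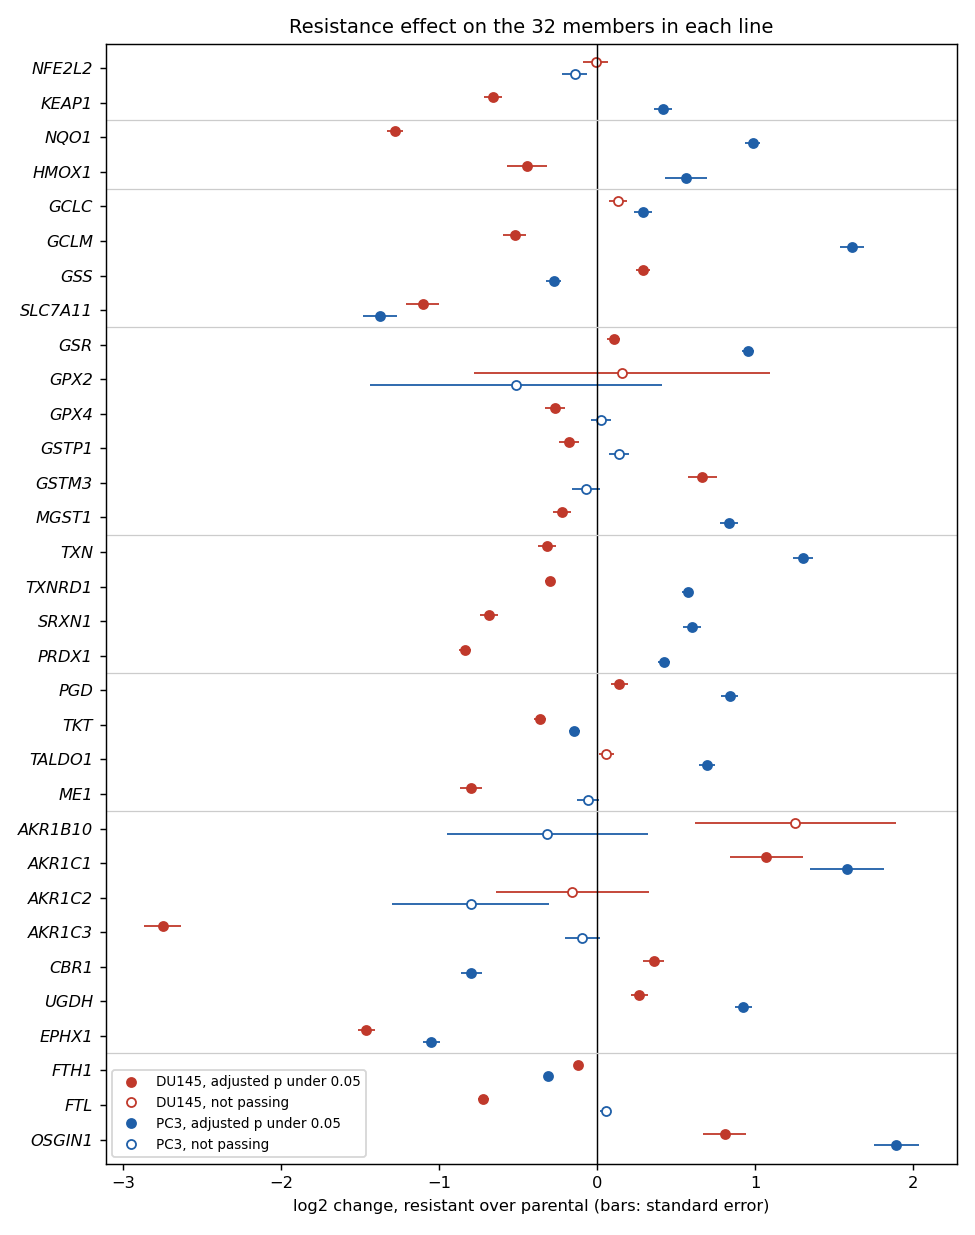
Log2 change of each of the 32 genes in resistant over parental DU145 (red) and PC3 (blue), with bars for the standard error; filled points passed at an adjusted p under 0.05, open points did not, and grey lines divide functional groups. TXN, TXNRD1, SRXN1 and PRDX1 lie left of 0 for DU145 and right of 0 for PC3, while SLC7A11 and EPHX1 lie left of 0 in both.

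NFE2L2 itself did not pass in either line. It had 18.1, 17.3 and 15.6 FPKM in resistant DU145, against 19.0, 17.1 and 16.2 FPKM in parental DU145 (-0.0087 ± 0.08, adjusted p = 0.973). It had 11.5, 9.74 and 10.5 FPKM in resistant PC3, against 12.5, 11.9 and 11.6 FPKM in parental PC3 (-0.14 ± 0.08, adjusted p = 0.161). The libraries overlapped in DU145, whereas in PC3 each resistant library lay below each parental one in FPKM, but not in CPM. KEAP1, the adaptor that marks NRF2 for destruction, was called in both lines and in opposite directions. It had 12.3, 11.6 and 13.5 FPKM in resistant DU145, against 20.1, 20.1 and 19.9 FPKM in parental DU145 (-0.66 ± 0.06, adjusted p = 1.09e-07). It had 31.2, 30.7 and 32.6 FPKM in resistant PC3, against 23.7, 24.6 and 24.4 FPKM in parental PC3 (0.42 ± 0.06, adjusted p = 1.09e-05). The groups did not overlap in either line. KEAP1 thus moved in the same direction as the other 8 genes that were lower in resistant DU145 and higher in resistant PC3.

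Among the partners and regulators of NRF2, CUL3, the scaffold of the KEAP1 ligase, was not called in DU145 (-0.082 ± 0.05, adjusted p = 0.211) or PC3 (0.052 ± 0.05, adjusted p = 0.432). SQSTM1, the autophagy receptor p62 that can draw KEAP1 away from NRF2, had 61.9, 57.4 and 56.8 FPKM in resistant DU145, against 86.9, 86.4 and 83.9 FPKM in parental DU145 (-0.52 ± 0.04), and 58.8, 60.8 and 61.1 FPKM in resistant PC3, against 115, 116 and 111 FPKM in parental PC3 (-0.88 ± 0.04). It fell in both lines. BACH1, a repressor that competes for the same elements, rose in both. It had 7.58, 7.95 and 7.98 FPKM in resistant DU145, against 4.62, 4.80 and 4.22 FPKM in parental DU145 (0.81 ± 0.07), and 8.72, 8.97 and 8.09 FPKM in resistant PC3, against 7.33, 7.01 and 6.16 FPKM in parental PC3 (0.37 ± 0.07). Of the small MAF partners, MAFF rose in resistant DU145 (1.05 ± 0.08) and in resistant PC3 (0.49 ± 0.07). MAFG fell in resistant DU145 (-0.22 ± 0.04) and rose in resistant PC3 (0.26 ± 0.05). MAFK rose in resistant DU145 (0.36 ± 0.06) and was not called in PC3 (0.14 ± 0.06, adjusted p = 0.0673). NFE2L1, a relative of NRF2 that drives proteasome genes, fell in resistant DU145 (-0.21 ± 0.03) and in resistant PC3 (-0.72 ± 0.03). Overlapping genes on the opposite strand averaged up to 9673 counts per library at SQSTM1, 1910 at MAFK (TMEM184A) and 454 at MAFF (PLA2G6). Their part in these values was not tested.

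**Figure D2:**
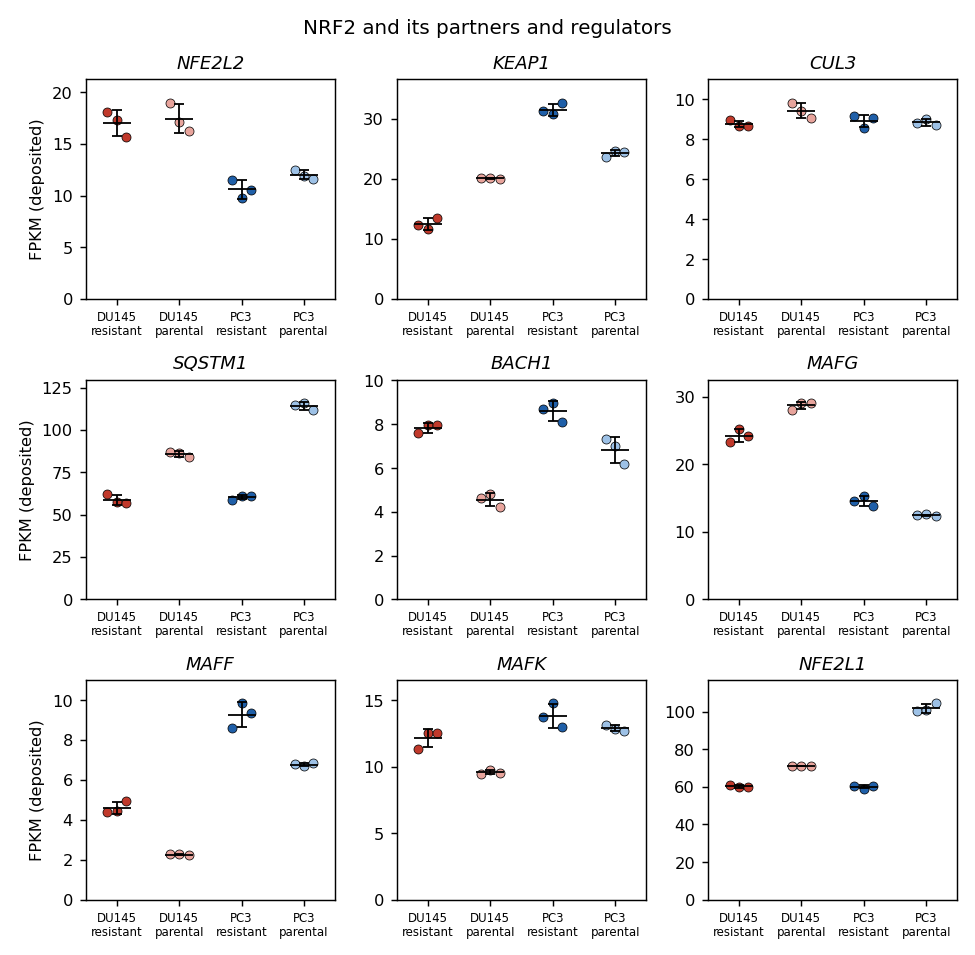
FPKM of NFE2L2 and 8 partners or regulators in each library (points), with group mean and SD (bars, n = 3), for resistant and parental DU145 and resistant and parental PC3, on linear axes from 0. KEAP1 is lower in resistant than in parental DU145 and higher in resistant than in parental PC3, while SQSTM1 is lower and BACH1 higher in both resistant groups.

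NQO1, the quinone reductase widely used as a readout of NRF2, fell in resistant DU145 and rose in resistant PC3. It had 269, 255 and 252 FPKM in resistant DU145, against 652, 632 and 631 FPKM in parental DU145 (2.43-fold lower, -1.28 ± 0.05, adjusted p = 1.13e-11). It had 57.4, 61.0 and 62.02 FPKM in resistant PC3, against 33.8, 30.9 and 29.04 FPKM in parental PC3 (1.98-fold higher, 0.98 ± 0.05, adjusted p = 1.81e-10). Groups did not overlap in either line, and resistant PC3 stayed below resistant DU145. HMOX1, which degrades heme, had 16.3, 15.7 and 13.4 FPKM in resistant DU145, against 22.9, 19.3 and 20.4 FPKM in parental DU145 (-0.44 ± 0.13, adjusted p = 0.0109). That call was lost without parental library 1 (-0.36, adjusted p = 0.0636) or resistant library 3 (-0.36, adjusted p = 0.0569). HMOX1 had 4.48, 5.42 and 4.57 FPKM in resistant PC3, against 3.87, 3.54 and 2.66 FPKM in parental PC3 (0.56 ± 0.13, adjusted p = 0.00249). It was low throughout PC3.

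Glutathione synthesis did not move as a unit. GCLM, the modifier subunit of the rate-limiting ligase, had 20.6, 18.7 and 17.3 FPKM in resistant DU145, against 29.2, 27.9 and 25.5 FPKM in parental DU145 (-0.52 ± 0.07, adjusted p = 2.99e-05). It had 11.03, 11.02 and 11.8 FPKM in resistant PC3, against 3.94, 3.505 and 3.92 FPKM in parental PC3 (3.06-fold higher, 1.61 ± 0.08, adjusted p = 1.25e-10). Its groups did not overlap in either line. GCLC, the catalytic subunit of the same enzyme, changed less. It had 21.4, 19.5 and 20.5 FPKM in resistant DU145, against 19.2, 19.7 and 18.1 FPKM in parental DU145 (0.13 ± 0.06, adjusted p = 0.0884), and was called there without library 2 of parental PC3, which enters the shared spread (adjusted p = 0.0485). It had 5.65, 5.87 and 5.73 FPKM in resistant PC3, against 5.23, 4.45 and 4.79 FPKM in parental PC3 (0.29 ± 0.06, adjusted p = 0.00082). GSS, which adds glycine in the last step, rose in resistant DU145 (0.29 ± 0.05) and fell in resistant PC3 (-0.28 ± 0.05).

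SLC7A11, the exchanger that imports cystine for glutathione, fell in both lines. It had 18.0, 17.4 and 12.9 FPKM in resistant DU145, against 36.3, 34.0 and 35.3 FPKM in parental DU145 (-1.10 ± 0.10, adjusted p = 3.14e-06). It had 6.59, 6.10 and 7.12 FPKM in resistant PC3, against 17.3, 17.8 and 17.7 FPKM in parental PC3 (-1.38 ± 0.11, adjusted p = 3.57e-07). SLC7A11 and GCLM, both known NRF2 targets, moved in opposite directions in resistant PC3. Resistant DU145 library 3 was the lowest of its group. Without it the 2 changes of SLC7A11 differed between the lines (-0.41, adjusted p = 0.000716), whereas with all libraries their difference was not called (-0.27 ± 0.15, adjusted p = 0.171).

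Among enzymes that use or recycle glutathione, GSR, which regenerates it from its oxidised form, rose in resistant PC3. It had 32.1, 32.9 and 31.6 FPKM in resistant PC3, against 17.8, 16.6 and 16.7 FPKM in parental PC3 (1.94-fold higher, 0.96 ± 0.04, adjusted p = 2.76e-11). In DU145 it was called by a small margin (0.10 ± 0.04, adjusted p = 0.0443), and leaving out any of the 6 DU145 libraries ended that call (adjusted p from 0.0503 without parental library 1 to 0.143 without parental library 3). MGST1, a membrane-bound transferase, had 37.9, 34.8 and 37.1 FPKM in resistant DU145, against 45.4, 43.9 and 41.1 FPKM in parental DU145 (-0.22 ± 0.06). It had 21.6, 22.2 and 23.7 FPKM in resistant PC3, against 13.0, 13.8 and 12.1 FPKM in parental PC3 (0.83 ± 0.06). LMO3, on the opposite strand, overlaps MGST1. Its counts were 32.6% of those of MGST1 in resistant DU145, against 53.0% in parental DU145, and 0.459% in resistant PC3, against 0.704% in parental PC3. LMO3 fell in resistant DU145 (-0.92 ± 0.22, adjusted p = 0.00787) and was not called in PC3 (0.21 ± 0.46, adjusted p = 0.778).

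GPX4, which reduces lipid peroxides and guards against ferroptosis, had 62.9, 62.2 and 66.3 FPKM in resistant DU145, against 73.2, 81.6 and 79.3 FPKM in parental DU145 (-0.27 ± 0.07, adjusted p = 0.00403). It was not called in PC3 (0.025 ± 0.07, adjusted p = 0.819). GSTM3, a cytosolic transferase, rose in resistant DU145 (0.67 ± 0.09) and was not called in PC3 (-0.069 ± 0.09, adjusted p = 0.581). GSTP1, the transferase often silenced in primary prostate cancer, was expressed in every group, at 28.1 ± 1.72 FPKM in resistant and 32.3 ± 1.38 FPKM in parental DU145 and at 74.2 ± 5.25 FPKM in resistant and 69.1 ± 3.82 FPKM in parental PC3 (SD, n = 3 each). It fell in resistant DU145 (-0.18 ± 0.06, adjusted p = 0.041), a call lost without parental library 1 (-0.13, adjusted p = 0.182), resistant library 1 (-0.17, adjusted p = 0.0725) or resistant library 2 (-0.13, adjusted p = 0.147). In PC3 it was not called (0.14 ± 0.06, adjusted p = 0.0904), although it was without parental library 2 (0.19, adjusted p = 0.0312) or resistant library 1 (0.19, adjusted p = 0.0304). GPX2, a peroxidase of gut epithelium, reached at most 0.671 FPKM and passed in neither line (0.16 ± 0.94, adjusted p = 0.945 in DU145 and -0.52 ± 0.92, adjusted p = 0.715 in PC3).

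All 4 genes of the thioredoxin group were lower in resistant DU145 and higher in resistant PC3, with no overlap between groups in either line. TXN, the thiol carrier itself, had 277, 253 and 282 FPKM in resistant DU145, against 338, 349 and 342 FPKM in parental DU145 (-0.32 ± 0.06, adjusted p = 0.000429). It had 190.3, 206 and 197 FPKM in resistant PC3, against 83.3, 89.6 and 74.3 FPKM in parental PC3 (2.47-fold higher, 1.304 ± 0.06, adjusted p = 8.83e-11). TXNRD1, the selenoenzyme that reduces thioredoxin with NADPH, fell in resistant DU145 (-0.30 ± 0.03) and rose in resistant PC3 (0.57 ± 0.03). SRXN1, which repairs overoxidised peroxiredoxins, had 109, 98.3 and 97.2 FPKM in resistant DU145, against 169.5, 169 and 158 FPKM in parental DU145 (-0.68 ± 0.06), and rose in resistant PC3 (0.60 ± 0.06). PRDX1, a peroxide-reducing enzyme, was the most abundant of the 4 per length. It had 381, 369 and 396 FPKM in resistant DU145, against 669, 709 and 702 FPKM in parental DU145 (-0.84 ± 0.04, adjusted p = 8.08e-11). It had 446, 458 and 475 FPKM in resistant PC3, against 360.3, 361 and 335 FPKM in parental PC3 (0.42 ± 0.04, adjusted p = 1.44e-07). Resistant PC3 stood above resistant DU145 in PRDX1, where parental PC3 stood below parental DU145.

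**Figure D3:**
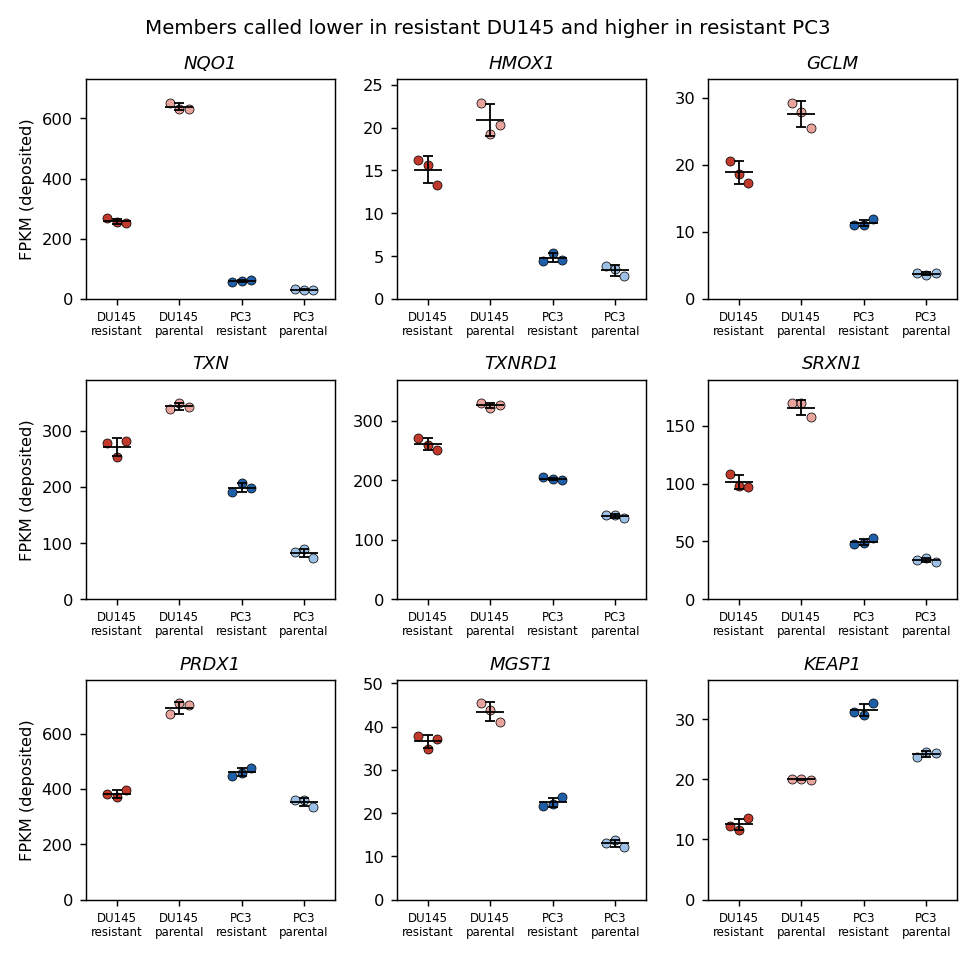
FPKM in each library (points) of the 9 genes called lower in resistant DU145 and higher in resistant PC3, with group mean and SD (bars, n = 3), on linear axes from 0; resistant cells stand left of their parental line. For NQO1, HMOX1, GCLM, TXN, TXNRD1, SRXN1 and MGST1 both PC3 groups lie below both DU145 groups, while for PRDX1 resistant PC3 lies above resistant DU145.

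Of the 4 enzymes of the NADPH group, PGD was called higher and TKT lower in both lines, and TALDO1 and ME1 were each called in 1 line. PGD, of the oxidative pentose phosphate branch, had 69.0, 70.3 and 71.7 FPKM in resistant PC3, against 43.2, 41.2 and 36.8 FPKM in parental PC3 (1.79-fold higher, 0.84 ± 0.05, adjusted p = 1.86e-09). In DU145 its rise was small (0.14 ± 0.05, adjusted p = 0.0377), and the call was lost without parental library 1 or 3 or resistant library 1 or 2 (adjusted p from 0.0882 to 0.131). TALDO1, of the non-oxidative branch, rose in resistant PC3 (1.62-fold, 0.70 ± 0.05) and was not called in DU145 (0.058 ± 0.05, adjusted p = 0.396). TKT, which acts beside it, fell in resistant DU145 (-0.36 ± 0.04) and in resistant PC3 (-0.14 ± 0.04). ME1, cytosolic malic enzyme, had 24.4, 22.2 and 23.1 FPKM in resistant DU145, against 43.8, 39.5 and 39.9 FPKM in parental DU145 (-0.80 ± 0.07, adjusted p = 1.34e-07), and was not called in PC3 (-0.055 ± 0.07, adjusted p = 0.581).

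The steepest called fall among the 32 was that of AKR1C3, which reduces ketosteroids and makes testosterone from androstenedione. It had 2.04, 2.18 and 2.44 FPKM in resistant DU145, against 14.2, 14.7 and 16.6 FPKM in parental DU145 (6.73-fold lower, -2.75 ± 0.12, adjusted p = 3.20e-11). It had 3.60, 2.82 and 3.06 FPKM in resistant PC3, against 3.75, 3.18 and 3.46 FPKM in parental PC3, where the libraries overlapped (-0.092 ± 0.11, adjusted p = 0.554). AKR1C1, its neighbour on chromosome 10 and a reductase of progesterone, rose in both lines at low levels. It had 0.659, 0.752 and 0.644 FPKM in resistant DU145, against 0.209, 0.406 and 0.381 FPKM in parental DU145 (1.07 ± 0.23, adjusted p = 0.00144). It had 1.001, 1.13 and 1.33 FPKM in resistant PC3, against 0.399, 0.380 and 0.407 FPKM in parental PC3 (1.58 ± 0.23, adjusted p = 3.36e-05). AKR1C1 shares 17.4% of its 100-base stretches with other genes and AKR1C2 32.9%, so reads may have been split between them, whereas AKR1C3 shares 4.98%. AKR1C2 reached at most 0.317 FPKM and AKR1B10, a retinal reductase, at most 0.934 FPKM. Neither passed in DU145 or PC3 (AKR1C2 -0.16 ± 0.49 and -0.80 ± 0.50, AKR1B10 1.26 ± 0.64 and -0.31 ± 0.63).

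EPHX1, which hydrolyses epoxides, fell in both lines. It had 21.6, 24.0 and 23.4 FPKM in resistant DU145, against 65.4, 62.1 and 65.8 FPKM in parental DU145 (2.75-fold lower, -1.46 ± 0.05). It had 19.1, 17.8 and 19.3 FPKM in resistant PC3, against 40.4, 38.4 and 40.8 FPKM in parental PC3 (2.07-fold lower, -1.05 ± 0.05). TMEM63A, on the opposite strand, overlaps EPHX1, and no source used here states the strand setting of the counting. The counts of TMEM63A were 112% of those of EPHX1 in resistant DU145, against 43.7% in parental DU145, and 127% in resistant PC3, against 131% in parental PC3. TMEM63A was not called in DU145 (-0.10 ± 0.07, adjusted p = 0.298) and fell in resistant PC3 (-1.09 ± 0.07). UGDH, which makes UDP-glucuronate for conjugation, had 107, 109.8 and 103 FPKM in resistant DU145, against 92.3, 91.5 and 86.0 FPKM in parental DU145 (0.27 ± 0.05), and 17.4, 16.3 and 18.8 FPKM in resistant PC3, against 9.54, 9.58 and 9.24 FPKM in parental PC3 (0.93 ± 0.05). It rose in both lines. CBR1, a carbonyl reductase, had 46.5, 42.5 and 50.4 FPKM in resistant DU145, against 37.3, 36.4 and 36.9 FPKM in parental DU145 (0.36 ± 0.07), and 28.0, 28.6 and 25.4 FPKM in resistant PC3, against 47.1, 52.1 and 47.0 FPKM in parental PC3 (-0.80 ± 0.07). It rose in resistant DU145 and fell in resistant PC3.

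The ferritin chains, which store iron, had the highest FPKM of the 32 in each group. FTL, the light chain, had 1187, 1111 and 1173 FPKM in resistant DU145, against 1941, 1949 and 1921 FPKM in parental DU145 (1.65-fold lower, -0.72 ± 0.04, adjusted p = 2.98e-10). In PC3 it was not called (0.055 ± 0.04, adjusted p = 0.254). FTH1, the heavy chain, fell in resistant DU145 (-0.12 ± 0.03) and in resistant PC3 (-0.31 ± 0.03). Of its 100-base stretches 65.8% also occur in other genes, first among them BEST1, which overlaps FTH1 on the opposite strand. OSGIN1, a growth inhibitor induced by oxidative stress, rose in both lines. It had 7.02, 6.16 and 5.41 FPKM in resistant DU145, against 3.91, 2.96 and 3.93 FPKM in parental DU145 (0.81 ± 0.14). It had 3.54, 3.31 and 3.11 FPKM in resistant PC3, against 0.991, 0.773 and 0.987 FPKM in parental PC3 (3.72-fold higher, 1.89 ± 0.14). MLYCD, on the same strand, overlaps OSGIN1. Its counts were 30.4% of those of OSGIN1 in resistant DU145, against 57.0% in parental DU145, and 47.9% in resistant PC3, against 170.05% in parental PC3. MLYCD was called in neither line (-0.10 ± 0.16 in DU145 and 0.067 ± 0.16 in PC3).

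Shared sequence or an overlapping expressed gene touched 11 of the 32 genes at a limit of 10%. These were NQO1, GPX2, MGST1, SRXN1, PRDX1, AKR1C1, AKR1C2, CBR1, EPHX1, FTH1 and OSGIN1, and their values are uncertain to that extent. SRXN1 shares 84.5% of its stretches with AL121758, which had 0.0514% of its counts. NQO1, PRDX1, CBR1 and FTH1 share most with AC092115, MMACHC, AP000688 and BEST1, which overlap them on the opposite strand. The counts of these overlapping genes were 0.00885%, 3.42%, 0.583% and 0.869% of theirs, in the same order. Of the other 21 genes, 5 were higher, 12 lower and 4 not called in resistant DU145. In resistant PC3, 10 were higher, 3 lower and 8 not called. Among all genes of at least 5 CPM, 63.7% were called in DU145 and 68.8% in PC3. NQO1, MGST1, SRXN1 and PRDX1, lower in resistant DU145 and higher in resistant PC3, are among the uncertain genes. Without them, that combination rests on KEAP1, HMOX1, GCLM, TXN and TXNRD1, or 5 of the other 21 genes. It held for 6.59% of all genes and 12.2% of genes of at least 5 CPM, with no uncertain genes left out. The HMOX1 call in DU145 was itself lost without parental library 1 or resistant library 3.

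The difference between the resistant-over-parental changes, PC3 minus DU145, was tested in the same fit. It was called for 25 of the 32 genes, 21 with the higher change in PC3 and 4 with the lower (GSS, GSTM3, CBR1 and FTH1). Over all genes 42.1% were called, among genes of at least 5 CPM 66.4%, and 22.1% of all genes were called with the higher change in PC3. It was at least 2-fold for 11 of the 32, against 21.1% of all genes. The median difference was 0.65 over the 32 genes and 0.02 over all genes. The largest called differences were those of AKR1C3 (2.66 ± 0.16), NQO1 (2.26 ± 0.07) and GCLM (2.14 ± 0.11). NFE2L2 was not called (-0.13 ± 0.11, adjusted p = 0.375).

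Parental PC3 was set against parental DU145 to describe where each line stood without resistance. Of the 32 genes, 27 differed, 7 higher and 20 lower in parental PC3. Over all genes 60.3% differed, 30.9% higher and 29.5% lower, and 82.1% of genes of at least 5 CPM. At least 2-fold differences were called for 15 of the 32, against 35.9% of all genes, and the libraries did not overlap for 27, against 67.7% of all genes. The median log2 difference was -0.90 over the 32 genes and 0.00 over all genes. NQO1 was 19.8-fold lower in parental PC3 (-4.31 ± 0.06), UGDH 9.22-fold (-3.20 ± 0.06), GCLM 7.04-fold (-2.82 ± 0.08), HMOX1 6.02-fold (-2.59 ± 0.14), SRXN1 4.76-fold (-2.25 ± 0.06), AKR1C3 4.25-fold (-2.09 ± 0.11) and TXN 4.03-fold (-2.01 ± 0.06). NFE2L2 was lower as well (-0.49 ± 0.08). GSTM3 (1.4999 ± 0.09), GSTP1 (1.15 ± 0.06), FTH1 (0.88 ± 0.03), CBR1 (0.45 ± 0.07), KEAP1 (0.32 ± 0.06), GSS (0.29 ± 0.05) and TALDO1 (0.16 ± 0.05) were higher in parental PC3. The call of TALDO1 was lost without parental DU145 library 2 (0.13, adjusted p = 0.0557) or 3 (0.13, adjusted p = 0.0561) or parental PC3 library 2 (0.10, adjusted p = 0.0994).

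The fitted distance between the lines was smaller in resistant than in parental cells for 22 of the 32 genes (68.8%). This held for 51.8% of all genes and for 53.8% of genes of at least 5 CPM. NQO1 differed 4.12-fold between resistant PC3 and resistant DU145, against 19.8-fold between the parental lines. GCLM differed 1.60-fold between the resistant sublines, against 7.04-fold between the parental lines, and TXN 1.31-fold against 4.03-fold. KEAP1 went the other way, 2.63-fold between resistant and 1.25-fold between parental cells. The median absolute log2 distance of the 32 genes was 0.74 between resistant and 1.07 between parental cells, and over all genes 0.92 and 0.97. These changes of distance restate the difference tested above and are no separate support for it.

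**Figure D4:**
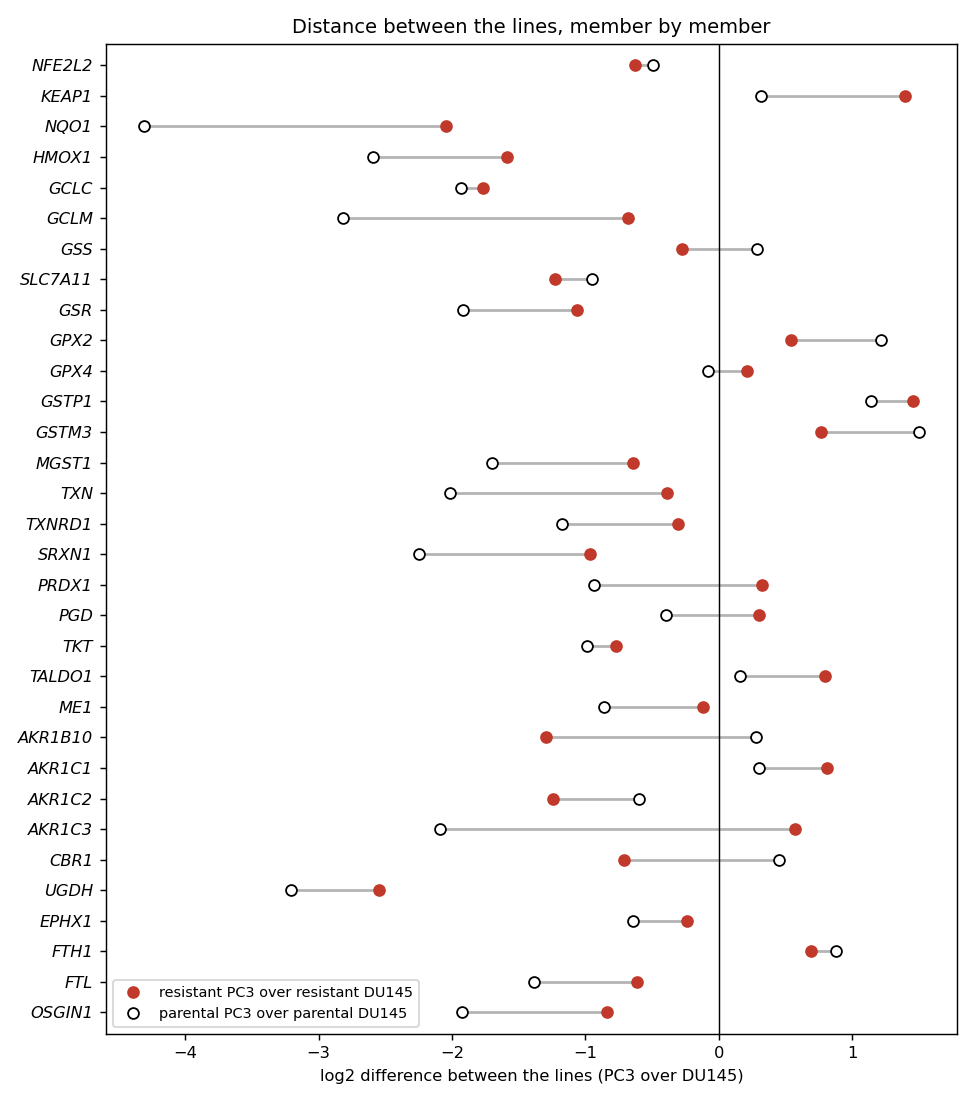
Fitted log2 difference between the lines (PC3 over DU145) for each of the 32 genes, in resistant cells (filled red) and in parental cells (open), joined by a grey line; 0 means equal levels. For NQO1, GCLM and TXN the red point lies nearer to 0 than the open one, and for KEAP1 it lies further away.

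The 32 genes together supplied 0.947% ± 0.0197 of all counts in resistant DU145 and 1.32% ± 0.0100 in parental DU145, and 0.815% ± 0.0100 in resistant PC3 and 0.789% ± 0.0192 in parental PC3 (SD, n = 3 each). This share weighs each gene by its counts. In parental DU145, TXNRD1, FTH1, NQO1, FTL and PRDX1 had the most counts and weigh most in it. The order differs in PC3, where NQO1 had 18290 counts over the 3 parental libraries, against 55802 for TKT. Per library, the median shift of the 32 genes from the parental mean was -0.22, -0.29 and -0.21 log2 units in resistant DU145 and 0.19, 0.34 and 0.21 log2 units in resistant PC3. The resistant libraries of each line lay on the same side.

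The further list of 70 genes covered other parts of the NRF2 and glutathione system, and 66 passed the filter. In resistant DU145, 18 were higher, 26 lower and 22 not called (median -0.16). The share called was 66.7%, against 39.6% of all genes and 63.7% of genes of at least 5 CPM. In resistant PC3, 21 were higher, 27 lower and 18 not called (median -0.00067). There 72.7% were called, against 44.0% of all genes and 68.8% of genes of at least 5 CPM. Both shares are near the background of well expressed genes. NFE2L3, another relative of NRF2, had 17.7, 18.3 and 18.1 FPKM in resistant DU145, against 3.81, 3.93 and 3.53 FPKM in parental DU145 (4.88-fold higher, 2.29 ± 0.05). It had 20.6, 19.5 and 19.0 FPKM in resistant PC3, against 92.1, 97.3 and 96.8 FPKM in parental PC3 (4.71-fold lower, -2.24 ± 0.05). It moved opposite to the 9 genes named above, higher in resistant DU145 and lower in resistant PC3. HNRNPA2B1, on the opposite strand, overlaps NFE2L3 and averaged 91081 counts per library. NFE2L3 itself had 80779 counts over the 3 libraries of parental PC3, its highest group. Since the strand setting of the counting is not stated, the values of NFE2L3 are uncertain to that extent.

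In resistant DU145, TXNIP, an inhibitor of thioredoxin, rose 4.35-fold (2.12 ± 0.18) and SOD2, the mitochondrial superoxide dismutase, 2.51-fold (1.33 ± 0.04). The transferase GSTM2 fell 3.49-fold (-1.80 ± 0.10), CHAC1, which degrades glutathione, 2.31-fold (-1.21 ± 0.13) and the stress protein SESN2 2.27-fold (-1.18 ± 0.12). In resistant PC3, ABCC3, an exporter of conjugates, fell 8.26-fold (-3.05 ± 0.08), GGT7 4.50-fold (-2.17 ± 0.18), the transferase GSTA4 3.53-fold (-1.82 ± 0.14) and CAT, which breaks down hydrogen peroxide, 2.61-fold (-1.39 ± 0.07). CHAC2, another glutathione-degrading enzyme, rose 2.83-fold there (1.5004 ± 0.20). Overlapping genes averaged 3457 counts per library at GGT7 (ACSS2) and 1054 at CHAC2 (ASB3). The largest overlapping gene averaged 4689 counts at SOD2 and 941 at GSTM2. Over the 3 libraries of the lower group compared, GGT7 itself had 910 counts (resistant PC3) and CHAC2 963 (parental PC3). In DU145, GSTM2 had 983 (resistant) and SOD2 31448 (parental). The part of the overlapping genes in these values was not tested, and the changes are uncertain to that extent.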

How the data were processed

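Oligo(dT)-selected RNA was sequenced as paired-end libraries with a dUTP-marked second strand, per the labels' protocols. Tools named in the submitters' processing notes, with no role stated, include cutadapt 1.9, HISAT2 2.0.4 and StringTie 1.3.4d, and the build named is hg18. The coordinates are those of GRCh38 instead: 37377 of 37385 genes shared with GENCODE on that build overlapped. The counter and its strand setting were not stated in any source used here. For each gene and library the authors deposited a raw count, used in the tests, and an FPKM, printed as deposited.

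Counts were filtered with filterByExpr, scaled with TMM and fitted with 1 mean per group over all 12 libraries (8 residual degrees of freedom) in edgeR 4.0.16 (R 4.3.3, two-sided robust quasi-likelihood test). The standard error is the absolute log2 change over the square root of F. On counts simulated for the DU145 comparison over 23021 genes, 58.2% of 1.5-fold, 91.0% of 2-fold and 100% of 4-fold changes were called. The simulation gave 10 false calls. These rates hold for the simulated counts only, and how far they carry over to the tests reported was not tested. Shared sequence is the share of 100-base stretches of a gene's transcript found in GENCODE transcripts of other genes. Genes that overlap on the opposite strand are included. Overlap is the mean count of the largest overlapping gene over that of the gene, over all libraries for the limit of 10% and within groups where printed.

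The genes and lists were chosen with earlier results of these data known. Of the further list, partners and regulators of NRF2 and, per line, up to 6 called genes with the largest change and a group mean of at least 5 CPM are named; 1 further gene is not reported here. Alternatives were RLE size factors, no filter, DESeq2 1.42.0, limma 3.58.1 on log2(FPKM + 1) and log2(FPKM + 0.1), only the groups compared, a replicate block and leaving out each library. Low counts vary more than sampling alone gives: at mean counts of 5 to 10 the variance within groups averaged 7.69 to 8.39 times the mean.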

Additional observations from a re-analysis of the deposited data

Results flagged for a closer look

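For 25 of the 32 genes the resistant-over-parental change differed between the lines by a test of that difference (edgeR's quasi-likelihood test, adjusted over all genes), which is what marked them. Values are log2 differences, PC3 minus DU145. Among redox and conjugating enzymes they were 2.26 for NQO1, 1.003 for HMOX1, 2.14 for GCLM, -0.57 for GSS, 0.85 for GSR, 0.29 for GPX4, 0.32 for GSTP1, -0.74 for GSTM3 and 1.06 for MGST1. In the thioredoxin group they were 1.62 for TXN, 0.87 for TXNRD1, 1.29 for SRXN1 and 1.26 for PRDX1. For NADPH supply they were 0.70 for PGD, 0.22 for TKT, 0.64 for TALDO1 and 0.74 for ME1. The remaining values were 1.08 for KEAP1, 2.66 for AKR1C3, -1.16 for CBR1, 0.66 for UGDH, 0.41 for EPHX1, -0.19 for FTH1, 0.77 for FTL and 1.09 for OSGIN1.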

How the results depend on the processing

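The numbers called among the 32 genes stayed within 1.5 times those reported under every alternative run. Without leaving out a library they were 24 to 27 in DU145, 22 in PC3, 25 for the difference between the lines and 27 between the parental lines. Leaving out each library in turn gave 22 to 27 in DU145, 22 to 23 in PC3, 24 to 26 for the difference and 26 to 28 between the parental lines. Over all genes it gave 8675 to 9570, 9737 to 10633, 9636 to 9875 and 13760 to 14671 in the same order. With limma 29 of the 32 genes were tested, since GPX2, AKR1B10 and AKR1C2 averaged under 1 FPKM in each group.

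No called change reversed. Uncalled values did, when libraries were left out in turn: in DU145 NFE2L2 (-0.060 to 0.067) and GPX2 (-0.52 to 1.36), in PC3 GPX4 (-0.036 to 0.086), ME1 (-0.13 to 0.012), GPX2 (-0.85 to 0.45), AKR1C2 (-1.13 to 0.052) and AKR1B10 (-0.94 to 0.36), in the difference between the lines AKR1C2 (-0.98 to 0.21) and GPX2 (-1.89 to 0.28), and between the parental lines AKR1B10 (-0.39 to 0.67). NFE2L2 in DU145 was at 0.0028 with only the groups compared, and GPX4 in PC3 at -0.015 and -0.016 with limma at pseudocounts 1 and 0.1.

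In DU145, GSR and PGD were not called without a filter (adjusted p = 0.109 and adjusted p = 0.0583) or with limma (adjusted p from 0.0561 to 0.0774). With only the groups compared, GCLC (adjusted p = 0.0319) and AKR1B10 (adjusted p = 0.0412) were called there and GSTP1 was not (adjusted p = 0.0651). Single libraries decided the difference between the lines for GCLC (called without parental PC3 library 1, adjusted p = 0.0473), AKR1C1 (called without parental DU145 library 1, adjusted p = 0.0406) and GPX4 (not called without parental PC3 library 3, adjusted p = 0.0584). AKR1C2 was called between the parental lines without PC3 library 3 (adjusted p = 0.0161). The causes were not tested.

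Same-numbered resistant and parental libraries showed no steady common deviation, with correlations of -0.035, 0.017 and -0.0065 in DU145. In PC3 the correlations were -0.074, 0.10 and -0.12. Differently numbered PC3 libraries reached 0.18 (resistant library 3 with parental library 1). No pairing by number is thus seen, and whether same-numbered libraries share a preparation was not tested. With the replicate block, 25 of the 32 genes were called in DU145, 22 in PC3, 25 for the difference and 27 between the parental lines, and GSTP1 in DU145 was not called (adjusted p = 0.0618). Over all genes the block left 9155, 10219, 9759 and 14093 calls.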

Other observations

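Of the 66 tested genes of the further list, 49 had a called difference between the lines, 24 with the higher change in PC3 and 25 with the lower. That is 74.2%, against 42.1% of all genes and 66.4% of genes of at least 5 CPM. SLC3A2 and PRDX6 were among those with the higher change in PC3, and both were chosen after their values were seen. SLC3A2, the partner chain of SLC7A11 in the cystine exchanger, had 35.8, 33.8 and 31.3 FPKM in resistant DU145, against 59.3, 61.8 and 58.1 FPKM in parental DU145 (-0.80 ± 0.05, adjusted p = 2.28e-09). It had 21.6, 22.8 and 21.7 FPKM in resistant PC3, against 16.6, 16.7 and 16.5 FPKM in parental PC3 (0.45 ± 0.05, adjusted p = 1.37e-06), by edgeR's quasi-likelihood test. The chains of the exchanger thus moved in opposite directions in resistant PC3, where SLC7A11 fell, and in the same direction in resistant DU145. PRDX6, a peroxiredoxin that uses glutathione, had 75.9, 73.9 and 75.6 FPKM in resistant DU145, against 111, 112 and 105 FPKM in parental DU145 (-0.52 ± 0.04). It had 309, 316 and 308 FPKM in resistant PC3, against 192, 206 and 191 FPKM in parental PC3 (0.70 ± 0.04).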
